A study of Mus musculus with 9 samples.

Results

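The extracellular proteases of the Mmp and Adamts families and their Timp inhibitors were described in mouse myoblasts in culture, which are dividing precursors of muscle fibres. Members were all genes with a probe set of their own whose symbol is Mmp, Adamts or Timp followed by its number, and each gene was read from its probe set of highest mean intensity. This gave 44 of the 19661 genes measured: 22 Mmp genes, 18 Adamts genes and 4 Timp genes. Mmp15 and Adamts2 carried no probe set of their own here and were not analysed. The cells were myoblasts from skeletal muscle of the Balb/c strain, kept in F10 with 20% FBS and 4 ng/ml of bFGF. Total RNA was hybridised to 3 arrays from cells with an empty vector (control, named CTAP in the labels), 3 from cells overexpressing Pax3 and 3 from cells overexpressing Pax7. Both are transcription factors with a paired domain that act in muscle precursors. The labels do not give the vector's promoter, nor do they say that a group's 3 RNA samples are separate cultures. The p-values thus reflect the spread among these samples alone, and that spread may be technical. The comparisons ask how each factor changed expression and where the factors differed.

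Mmp proteins are zinc proteases that are made as inactive precursors and cut collagens, gelatin, elastin and other proteins around the cell, some of them anchored in the membrane. Adamts proteins are related secreted zinc proteases, of which some cut the proteoglycans aggrecan and versican and others remove the N-terminal propeptide of procollagens. Timp proteins bind the active site of these enzymes and block it. In muscle, matrix proteolysis by these families accompanies the migration and fusion of myoblasts and the repair of fibres.

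Values are log2 intensities per probe set, and a difference of 1 is a fold change of 2. The files give no detection calls, so a low intensity, as of Timp3 in the overexpressing arrays or Mmp28 in control, was not shown to be above background, and a fold against it is a ratio of intensities. The Pax3 gene stood at 5.83 ± 0.071 in control arrays, 11.05 ± 0.046 with Pax3 and 6.82 ± 0.039 with Pax7 (SD, n = 3 each), and the Pax7 gene at 10.51 ± 0.081, 8.18 ± 0.065 and 12.28 ± 0.030. Xist, the RNA that silences an X chromosome, stood at 4.77 ± 0.126, 11.96 ± 0.071 and 11.72 ± 0.033, and the Y-linked gene Eif2s3y at 8.78 ± 0.040, 3.12 ± 0.019 and 3.08 ± 0.014. Each comparison against control therefore also set Xist-positive arrays beside arrays positive for Y-linked genes, and the factor cannot be told apart from any difference in the origin of the cells, for every change against control reported here. Both comparisons share the 3 control arrays. Myoblast markers were high in every group, with Myod1, a master regulator of myogenesis, between 12.18 and 12.62 in the group means. Of 7 such markers 1 was higher and 5 lower in Pax3 arrays than in control, where 39.6% of all genes passed. In Pax7 arrays 2 were higher and 5 lower than in control, where 43.2% of all genes passed. The markers were not constant: Myog stood at 11.57 in control, 10.27 with Pax3 and 9.13 with Pax7. Des fell by 0.52 with Pax3 and 1.33 with Pax7, and Myf5 rose by 1.97 and 2.02. The 7 include Pax7 itself, which is among the 5 lower with Pax3 and the 2 higher with Pax7. The fibroblast markers decorin (Dcn) and lumican (Lum) stood between 4.97 and 5.08 and between 3.25 and 3.29 in all group means. Of 6 measured fibroblast markers 1 was higher in Pax3 and 2 in Pax7 arrays than in control. These were Pdgfra, by 0.42 with Pax3 and 0.58 with Pax7, and Tcf21, by 0.18 with Pax7. In bulk RNA, fewer cells of a type and less RNA per cell cannot be told apart.

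Timp3 fell further than any other member, and each family held both rising and falling genes. The 250 bases before the RefSeq start site (GRCm38.p6) are shown for Timp3, which fell furthest, and for Mmp28, Adamts1 and Adamts14, which rose with both factors. Promoter sequences were available for 30 of the 44 members, at 33 start sites. Mmp2, Mmp16, Mmp19, Adamts4, Adamts5 and Adamts6 were among the members without one and could not be searched. Capitals mark matches on either strand to a homeodomain pair site (TAAT and its reverse ATTA with 2 bases between), an E-box (CAGCTG), an AP-1 site (TGANTCA), a GC box (GGGCGG, or CCGCCC on the other strand) and a TATA box (TATAAA).
Timp3, chr10:86300162-86300411, plus strand: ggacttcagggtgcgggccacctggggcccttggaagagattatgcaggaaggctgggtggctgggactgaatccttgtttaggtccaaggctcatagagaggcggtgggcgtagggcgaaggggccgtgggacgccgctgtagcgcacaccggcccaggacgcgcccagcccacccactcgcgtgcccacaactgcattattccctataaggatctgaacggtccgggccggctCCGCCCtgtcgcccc
Mmp28, chr11:83463041-83463290, minus strand: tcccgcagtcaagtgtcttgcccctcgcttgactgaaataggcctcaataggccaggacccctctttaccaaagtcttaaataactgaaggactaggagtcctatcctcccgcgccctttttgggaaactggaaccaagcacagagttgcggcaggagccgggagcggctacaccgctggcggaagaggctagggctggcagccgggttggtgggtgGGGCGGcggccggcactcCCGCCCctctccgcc
Adamts1, chr16:85803114-85803363, minus strand: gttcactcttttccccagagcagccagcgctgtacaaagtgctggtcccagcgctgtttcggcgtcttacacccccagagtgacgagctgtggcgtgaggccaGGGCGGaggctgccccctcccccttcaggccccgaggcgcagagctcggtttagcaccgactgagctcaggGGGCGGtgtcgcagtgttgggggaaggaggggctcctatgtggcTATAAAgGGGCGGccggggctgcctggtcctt
Adamts14, chr10:61273420-61273669, minus strand: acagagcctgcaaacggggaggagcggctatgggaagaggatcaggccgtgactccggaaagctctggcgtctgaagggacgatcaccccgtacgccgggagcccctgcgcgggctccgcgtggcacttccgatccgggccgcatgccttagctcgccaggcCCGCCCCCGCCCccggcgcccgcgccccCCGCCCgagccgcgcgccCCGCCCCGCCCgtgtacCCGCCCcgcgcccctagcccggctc
All 4 promoters held GC boxes, as did 14 of the 33 member promoters and 32.7% of the 32851 promoters of this length. Timp4 and Mmp12, which also rose with both factors, held none, nor did Mmp23 and Adamts12, which fell with both. The 4 shown were 62.0 to 76.4% G or C, beside a median of 52.4% over all promoters. Timp3 had 1, Mmp28 2, Adamts1 3 and Adamts14 6, of which some overlap, and Adamts1 also had a TATA box beginning at -32 from its start. None of the 33 member promoters held the homeodomain pair site, which occurs in 0.384% of all promoters, and this says only that these letters are not in these windows.

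**Figure D1:**
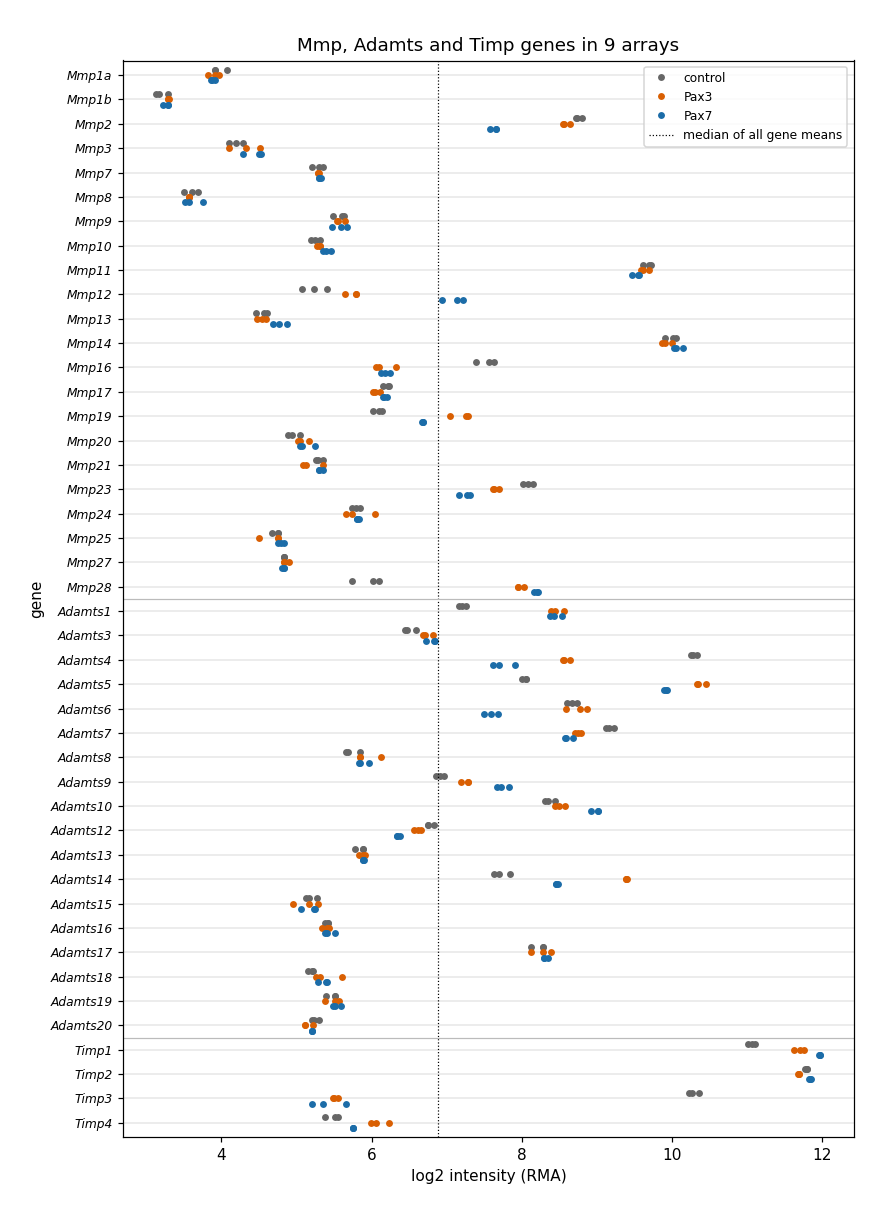
Log2 intensity (x axis) of each of the 44 genes (y axis) in every array, with control arrays in grey, Pax3 arrays in orange and Pax7 arrays in blue. The dotted line is the median of all gene means, 6.88, and 27 of the 44 genes have a mean at or below it.

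Of the 4 inhibitors, Timp3 fell and Timp1 and Timp4 rose with both factors, while Timp2 moved by at most 0.15 in any comparison. Timp3, which binds to the matrix and inhibits aggrecanases and Adam proteases as well as Mmp enzymes, stood at 10.23, 10.27 and 10.35 in the control arrays. The Pax3 arrays gave 5.48, 5.56 and 5.50, and the Pax7 arrays 5.21, 5.35 and 5.66. All control arrays lay far above all others, and the Pax3 and Pax7 arrays overlapped. Timp3 was 27.3-fold lower with Pax3 than in control (log2 fold change -4.77 ± 0.094, SE, limma adjusted p = 3.58e-11) and 29.4-fold lower in Pax7 arrays (-4.88 ± 0.094, limma adjusted p = 1.77e-11). Between Pax7 and Pax3 arrays it differed by -0.11 ± 0.094 (limma adjusted p = 0.552), and by -0.23 when Pax7 replicate 3 was left out (limma adjusted p = 0.0356).

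Timp1, a soluble inhibitor of most Mmp enzymes, stood at 11.10, 11.07 and 11.01 in control, 11.62, 11.75 and 11.71 with Pax3 and 11.96, 11.97 and 11.97 with Pax7. The groups formed 3 separate steps. The rise was 0.63 ± 0.047 with Pax3 (limma adjusted p = 8.83e-07) and 0.91 ± 0.047 with Pax7 (limma adjusted p = 3.22e-08), and Pax7 arrays were 0.27 ± 0.047 above Pax3 arrays (limma adjusted p = 0.00186). Timp4, an inhibitor known from heart and skeletal muscle, lay at 5.37, 5.51 and 5.56 in control, 5.99, 6.06 and 6.23 with Pax3 and 5.75 with Pax7. The deposited Timp4 values of the Pax7 arrays were identical, as were those of 1.84% of genes in that group. Timp4 was again in 3 steps, but with Pax3 on top: it rose by 0.61 ± 0.066 with Pax3 (limma adjusted p = 1.96e-05) and by 0.28 ± 0.066 with Pax7 (limma adjusted p = 0.00565), and Pax7 arrays were below Pax3 arrays (-0.34 ± 0.066, limma adjusted p = 0.00462).

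Timp2, which inhibits Mmp enzymes and, together with Mmp14, also takes part in activating Mmp2, stood at 11.80, 11.79 and 11.77 in control, 11.68, 11.69 and 11.69 with Pax3 and 11.83, 11.85 and 11.83 with Pax7. The groups were narrow and close to each other. Its fall of 0.10 in Pax3 arrays (limma adjusted p = 0.0453) no longer passed after removal of any one of the 9 arrays (highest adjusted p 0.12), and the 0.15 between Pax7 and Pax3 arrays (limma adjusted p = 0.0157) ended without Pax7 replicate 2 or Pax7 replicate 3 (adjusted p up to 0.0606). By the RefSeq annotation, 3 of the 4 Timp genes lie inside a synapsin gene, Timp1 in Syn1, Timp3 in Syn3 and Timp4 in Syn2. The host of Timp3 did not fall with it: Syn3 differed from control by 0.12 ± 0.062 in Pax3 (limma adjusted p = 0.152) and 0.21 ± 0.062 in Pax7 arrays (limma adjusted p = 0.0168). Syn1 rose by 0.38 ± 0.044 and 0.34 ± 0.044 (limma adjusted p = 3.28e-05 and 7.27e-05) and Syn2 by 0.43 ± 0.060 and 0.41 ± 0.060 (limma adjusted p = 0.000141 and 0.000156), in the direction of Timp1 and Timp4. Mmp19, Mmp23 and Mmp28 overlap the genes Tmem198b, Mib2 and 1700020L24Rik. Tmem198b fell by 0.46 with Pax3 and 0.17 with Pax7, where Mmp19 rose. Mib2 rose by 0.79 and 0.50, where Mmp23 fell. 1700020L24Rik rose by 0.29 and 0.41, in the direction of Mmp28. Whether overlapping genes share signal was not tested.

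**Figure D2:**
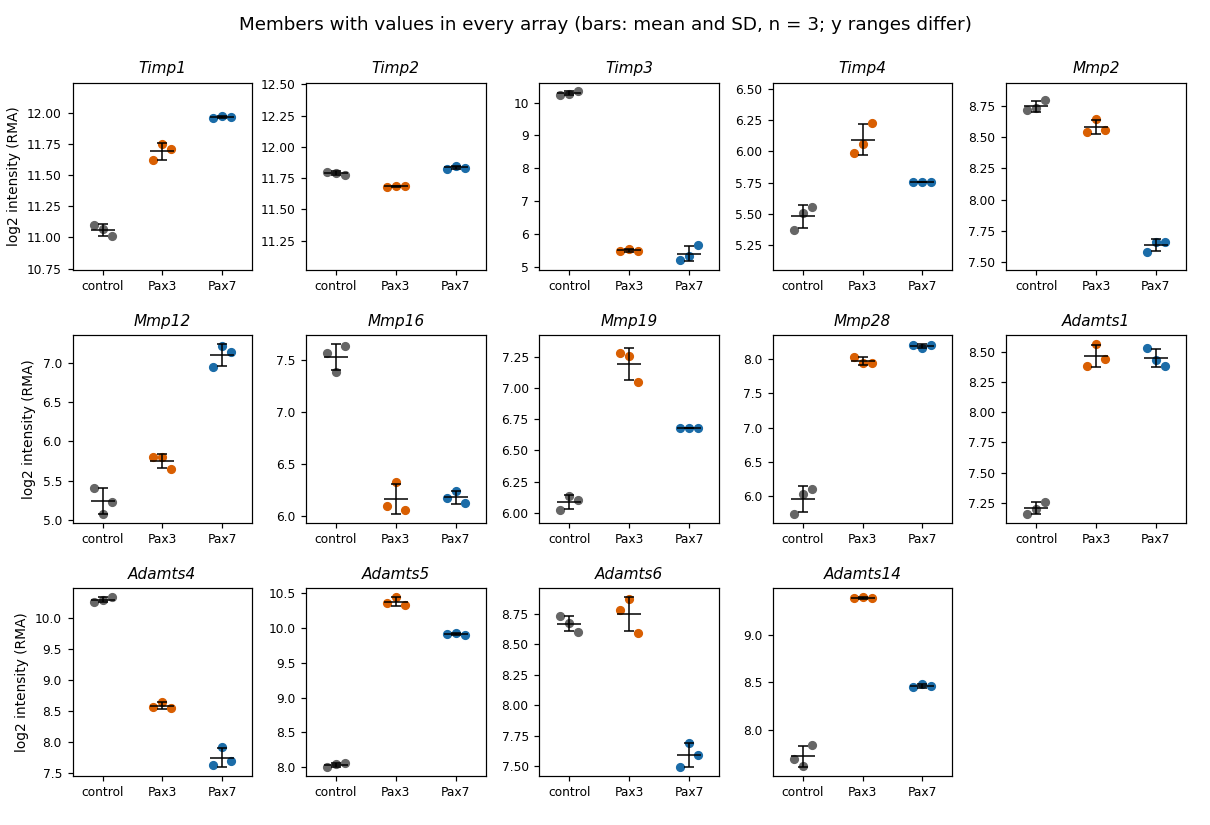
Log2 intensity (y axis, ranges differ between panels) of the 4 Timp genes, Mmp2 and the 9 other genes that changed by at least 1 log2 unit in some comparison, with a point per array and bars for mean and SD (n = 3). Timp3 falls from above 10 in control to below 6 in all other arrays, while Adamts5 rises from about 8 to about 10.

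Across the 44 members, 10 were higher and 9 lower in Pax3 than in control arrays at limma adjusted p under 0.05, and 25 did not pass. The share called, 19 of 44, was near that of all genes, of which 39.6% passed, 19.8% higher and 19.7% lower. In Pax7 arrays 13 members were higher, 9 lower and 22 not past, against 43.2% of all genes called, 21.6% higher and 21.5% lower. The median log2 fold change over the members was 0.020 with Pax3 and 0.054 with Pax7, beside 0.016 and 0.027 over all genes. The median size of the change, without its sign, was 0.118 with Pax3 and 0.167 with Pax7, beside 0.114 and 0.133 over all genes. Changes of at least 1 log2 unit passed in 8 members with Pax3 (4.8% of all genes) and in 9 with Pax7 (6.58% of all genes). All 3 Pax3 arrays lay on a single side of all control arrays in 20 members (45.1% of all genes) and all 3 Pax7 arrays did so in 27 (55.5% of all genes). By family, 7 Mmp, 8 Adamts and 4 Timp genes passed with Pax3, and 9, 10 and 3 with Pax7.

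With the control arrays shared, 10 members were higher in both comparisons, 7 were lower in both and 7 passed in a single comparison. Higher in both were Mmp12, Mmp19, Mmp28, Adamts1, Adamts3, Adamts5, Adamts9, Adamts14, Timp1 and Timp4. Lower in both were Mmp2, Mmp16, Mmp23, Adamts4, Adamts7, Adamts12 and Timp3. The share of all genes called alike in both comparisons was not computed, so these joint counts are not shown to be particular to the families. Over probe sets, Pax3 arrays correlated with Pax7 arrays at 0.994 to 0.995. Control arrays correlated with Pax3 arrays at 0.978 to 0.980 and with Pax7 arrays at 0.971 to 0.974. By intensity, of 17 members with a mean above the median gene 12 passed with Pax3 and 14 with Pax7 (61.7% and 65.0% of all genes there), and of the 27 others 7 and 8 (17.5% and 21.3%).

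**Figure D3:**
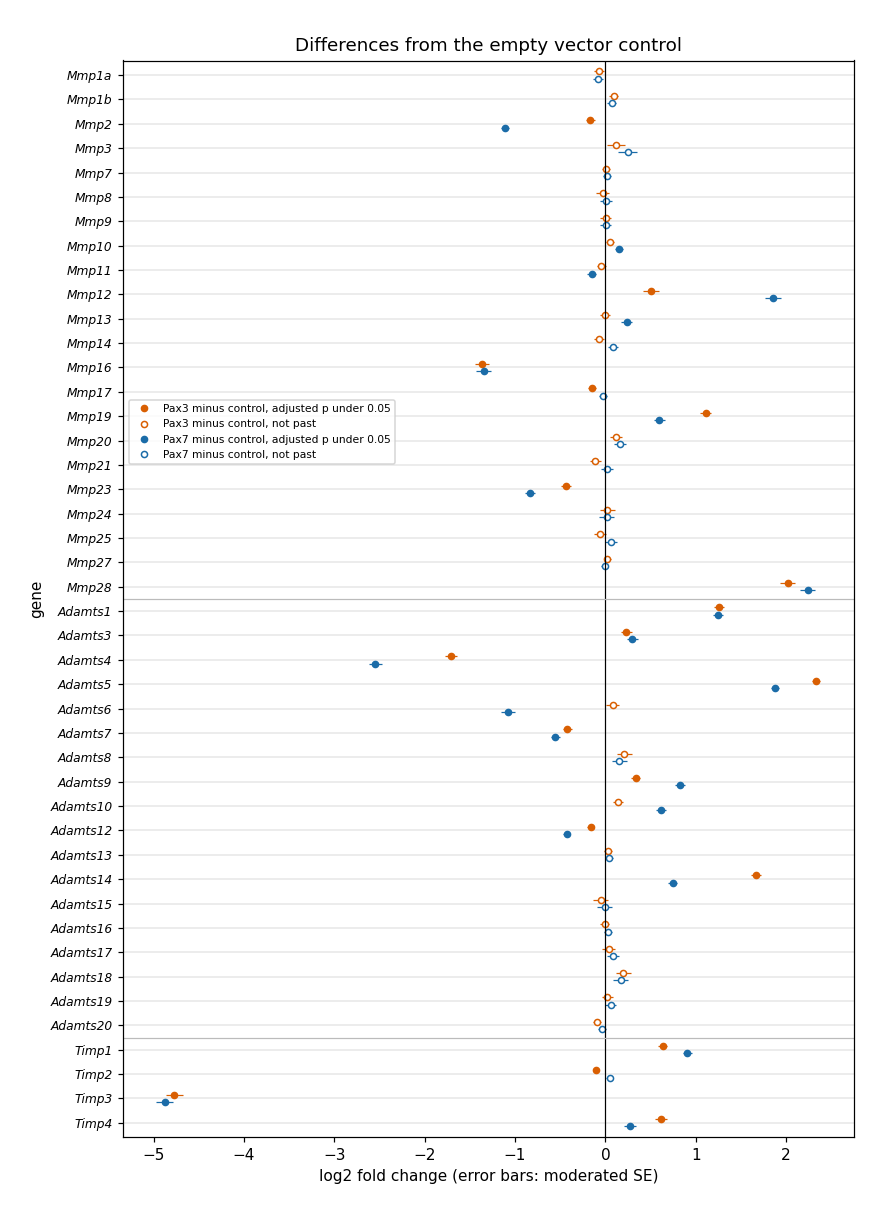
Log2 fold change (x axis) of each of the 44 genes (y axis) in Pax3 (orange) and Pax7 arrays (blue) against control, with moderated SE as bars and filled points for limma adjusted p under 0.05. Timp3 lies alone near -4.8 for both factors, and Adamts5 and Mmp28 are the furthest to the right.

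Among the gelatinases and membrane-bound Mmp genes, those that changed went down. Mmp2, gelatinase A, which degrades gelatin and the collagen of basement membranes, stood at 8.72, 8.73 and 8.80 in control, 8.54, 8.64 and 8.56 with Pax3 and 7.58, 7.66 and 7.66 with Pax7. The Pax7 arrays stood apart, and the Pax3 arrays lay just under control. Mmp2 was 2.16-fold lower with Pax7 than in control (-1.11 ± 0.047, limma adjusted p = 6.36e-09) and 1.93-fold lower in Pax7 than in Pax3 arrays (-0.95 ± 0.047, limma adjusted p = 2.65e-07). The difference with Pax3 was -0.17 ± 0.047 (limma adjusted p = 0.0154), and it did not pass without control replicate 3 or Pax3 replicate 1 (adjusted p up to 0.0565). Mmp16, a membrane-type enzyme that can activate Mmp2, gave 7.57, 7.39 and 7.63 in control, 6.10, 6.33 and 6.06 with Pax3 and 6.17, 6.24 and 6.12 with Pax7. Both overexpressing groups overlapped well below control, at -1.36 ± 0.081 with Pax3 (limma adjusted p = 1.5e-07) and -1.35 ± 0.081 with Pax7 (limma adjusted p = 1.19e-07). Mmp23, which is anchored in the membrane by its N terminus, fell by 0.44 with Pax3 and by 0.84 with Pax7 (limma adjusted p = 4.52e-05 and 1.76e-07).

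The main activator of Mmp2, the membrane enzyme Mmp14, did not pass in any comparison, with means of 9.99 ± 0.074 in control, 9.92 ± 0.066 with Pax3 and 10.07 ± 0.061 with Pax7 (SD, n = 3 each). Gelatinase B, Mmp9, stood at 5.58 in the mean of every group and did not pass either. Mmp17, held in the membrane by a lipid anchor, differed by -0.15 ± 0.043 with Pax3 (limma adjusted p = 0.0177), which ended as a call without control replicate 2, control replicate 3 or Pax3 replicate 1 (adjusted p up to 0.0613). Mmp11, a stromelysin first found in stroma, differed by -0.15 ± 0.048 with Pax7 (limma adjusted p = 0.0228), which ended without control replicate 1, control replicate 3 or Pax7 replicate 3 (adjusted p up to 0.0943).

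The secreted Mmp genes Mmp28, Mmp19 and Mmp12 rose. Mmp28, or epilysin, an enzyme known from skin and testis, stood at 5.74, 6.03 and 6.11 in control, 8.03, 7.94 and 7.94 with Pax3 and 8.21, 8.16 and 8.21 with Pax7. It was 4.05-fold higher with Pax3 (2.02 ± 0.081, limma adjusted p = 7.05e-09) and 4.71-fold higher with Pax7 (2.24 ± 0.081, limma adjusted p = 1.96e-09). The Pax7 arrays all lay above the Pax3 arrays, by 0.22 ± 0.081, which did not pass (limma adjusted p = 0.103). This difference did pass with only the 2 groups compared (limma adjusted p = 0.0156) and without control replicate 1 (limma adjusted p = 0.0115). Mmp19, which cuts basement membrane proteins, gave 6.02, 6.13 and 6.10 in control, 7.28, 7.25 and 7.05 in Pax3 and 6.68 in each Pax7 array. It was thus higher with Pax3 (1.11 ± 0.062, limma adjusted p = 8.89e-08) than with Pax7 (0.59 ± 0.062, limma adjusted p = 1.16e-05), and the difference between the factors passed (-0.52 ± 0.062, limma adjusted p = 0.00016).

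Mmp12, the elastase of macrophages, stood at 5.41, 5.08 and 5.23 in control, 5.80, 5.80 and 5.65 with Pax3 and 6.94, 7.21 and 7.14 with Pax7. The 3 groups did not overlap, and the step to Pax7 was the larger. Mmp12 was 1.42-fold higher with Pax3 (0.51 ± 0.091, limma adjusted p = 0.000881), 3.62-fold higher with Pax7 (1.86 ± 0.091, limma adjusted p = 2.11e-08) and 2.55-fold higher in Pax7 than in Pax3 arrays (1.35 ± 0.091, limma adjusted p = 2.47e-06). Of 7 macrophage and leukocyte markers, Cd68, a lysosomal protein, rose by 1.36 ± 0.060 and 2.04 ± 0.060 (limma adjusted p = 1.55e-08 and 3.81e-10). The other 6, Adgre1, Csf1r, Ptprc, Itgam, Lyz2 and C1qa, stood between 3.82 and 5.67 in all group means and did not pass in any comparison (limma adjusted p of at least 0.0665). The summed linear intensity of the 7 markers ran from 309 to 355 in control, 586 to 601 in Pax3 and 827 to 866 in Pax7 arrays. Without Cd68 the sum ran from 160 to 178 in control, 169 to 183 with Pax3 and 172 to 178 with Pax7. Of 6 endothelial markers, 1 was higher in Pax3 and 2 in Pax7 arrays, and their part in these results was not tested.

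Mmp12 had the largest difference in each comparison within a run of 10 neighbouring Mmp genes on chromosome 9, with no other protein-coding gene between them in the RefSeq table. The run, in order, is Mmp13, Mmp12, Mmp1b, Mmp3, Mmp1a, Mmp10, Mmp8, Mmp27, Mmp20 and Mmp7, and holds collagenases, stromelysins, matrilysin and the enamel protease Mmp20. The 9 genes other than Mmp12 had group means between 3.20 and 5.40, and none passed between Pax3 and control arrays, where they differed by -0.07 to 0.12. Against control in Pax7 arrays they differed by -0.09 to 0.24, and 2 passed. These were collagenase 3, Mmp13 (0.23 ± 0.059, limma adjusted p = 0.00749), and stromelysin 2, Mmp10 (0.15 ± 0.046, limma adjusted p = 0.0224), whose call ended without control replicate 1, control replicate 2 or Pax7 replicate 1 (adjusted p up to 0.0934). Mmp1a and Mmp1b are close copies whose signals may not be separable. The 100 bases before the start are shown for Mmp12, at the second of its RefSeq starts, and for 4 of the neighbours that hold matches, with the motif matches of the same search in capitals.
Mmp12, chr9:7347274-7347373, plus strand: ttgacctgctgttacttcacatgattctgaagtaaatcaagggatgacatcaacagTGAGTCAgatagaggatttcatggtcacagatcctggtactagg
Mmp13, chr9:7272414-7272513, plus strand: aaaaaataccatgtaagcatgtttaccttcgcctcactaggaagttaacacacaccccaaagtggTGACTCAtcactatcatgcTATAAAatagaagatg
Mmp3, chr9:7445722-7445821, plus strand: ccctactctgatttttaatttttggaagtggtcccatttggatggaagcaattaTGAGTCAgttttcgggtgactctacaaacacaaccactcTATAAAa
Mmp1a, chr9:7464041-7464140, plus strand: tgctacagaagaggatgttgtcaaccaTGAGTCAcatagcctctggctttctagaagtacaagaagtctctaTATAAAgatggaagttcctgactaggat
Mmp10, chr9:7502242-7502341, plus strand: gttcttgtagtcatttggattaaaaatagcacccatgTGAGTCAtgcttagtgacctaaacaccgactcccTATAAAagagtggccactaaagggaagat
Matches to the AP-1 pattern TGANTCA were found in 8 of the 10 genes of the run, against 6.75% of all promoters, and in 0 of the 20 other members with a promoter sequence. The pattern leaves its middle base open in both counts. Mmp20 matched as TGAATCA, whereas the matches shown have G or C there. Genes were counted here if any of their starts matched, whereas the shares of all promoters count each start site by itself. TATA boxes were found in 7 of the 10, against 12.4% of all promoters, and in 2 of the 20 others, whereas GC boxes were found in 0 of the 10 and in 14 of the 20. Mmp12 carried the AP-1 letters at -44 from the second start, without a TATA box in the window, and none of the motifs at its first start. Mmp8 and Mmp27 had none of the motifs.

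Of the Adamts genes that cut aggrecan or versican, Adamts1, Adamts5 and Adamts9 rose, Adamts4 fell, and Adamts8, Adamts15 and Adamts20 did not pass in any comparison. Adamts5, an aggrecanase, stood at 8.01, 8.05 and 8.06 in control, 10.35, 10.44 and 10.33 with Pax3 and 9.92, 9.93 and 9.89 with Pax7. It was 5.05-fold higher with Pax3 (2.34 ± 0.044, limma adjusted p = 2.54e-11) and 3.67-fold higher with Pax7 (1.87 ± 0.044, limma adjusted p = 7.02e-11), and lower in Pax7 than in Pax3 arrays (-0.46 ± 0.044, limma adjusted p = 3.14e-05). Adamts4, the other main aggrecanase, went the opposite way, from 10.25, 10.28 and 10.34 in control to 8.56, 8.64 and 8.54 in Pax3 and 7.62, 7.91 and 7.69 in Pax7 arrays. Adamts4 was 3.27-fold lower with Pax3 (-1.71 ± 0.070, limma adjusted p = 7.72e-09), 5.85-fold lower with Pax7 (-2.55 ± 0.070, limma adjusted p = 2.23e-10) and 1.79-fold lower in Pax7 than in Pax3 arrays (-0.84 ± 0.070, limma adjusted p = 1.21e-05). For neither gene did any of the 3 groups overlap another.

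Adamts1, which cuts versican and aggrecan and has anti-angiogenic activity, stood at 7.16, 7.20 and 7.26 in control, 8.38, 8.56 and 8.44 with Pax3 and 8.53, 8.43 and 8.38 with Pax7. It rose by 1.26 ± 0.059 and 1.24 ± 0.059 (limma adjusted p = 2.25e-08 and 1.6e-08), and the overexpressing groups overlapped. Adamts1 and Adamts5 are neighbours on chromosome 16 with no protein-coding gene between them in the RefSeq table. The other neighbouring pair, Adamts15 and Adamts8 on chromosome 9, did not pass in any comparison. Adamts9, a versican protease, rose by 0.33 ± 0.053 with Pax3 and 0.83 ± 0.053 with Pax7 (limma adjusted p = 0.000382 and 2.16e-07), and Pax7 arrays exceeded Pax3 arrays (0.49 ± 0.053, limma adjusted p = 7.86e-05). All 6 probe sets of Adamts9 were higher in every comparison, by 0.15 to 0.88 with Pax3 and by 0.43 to 1.66 with Pax7, and the mean of the 6 gave 0.60 with Pax3.

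The procollagen N-propeptidases Adamts14 and Adamts3 rose. Adamts14 stood at 7.69, 7.63 and 7.84 in control, 9.38, 9.40 and 9.38 with Pax3 and 8.45, 8.48 and 8.46 with Pax7, with the Pax7 arrays between the others. It was 3.17-fold higher with Pax3 (1.67 ± 0.054, limma adjusted p = 1.35e-09) and 1.67-fold higher with Pax7 (0.74 ± 0.054, limma adjusted p = 5.9e-07), and the factors differed (-0.92 ± 0.054, limma adjusted p = 8.92e-07). Adamts3 rose by 0.23 ± 0.058 and 0.30 ± 0.058 (limma adjusted p = 0.00779 and 0.00147), and all 16 of its probe sets lay above control with both factors. The mean of the 16 gave 0.30 with Pax3 and 0.23 with Pax7, the reverse order, and only 5 of the 16 were higher with Pax7 than with Pax3. The collagen chains that such enzymes process gave no common direction: Col1a1 and Col1a2 did not pass in any comparison, and Col3a1 fell by 0.26 with Pax3 and by 0.88 with Pax7 (limma adjusted p = 0.00135 and 5.94e-08).

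Adamts6 moved with Pax7 and did not pass with Pax3. It is a protease tied to fibrillin microfibrils and stood at 8.73, 8.67 and 8.60 in control, 8.78, 8.87 and 8.59 with Pax3 and 7.49, 7.69 and 7.59 with Pax7. Pax3 and control arrays overlapped (0.08 ± 0.075, limma adjusted p = 0.473), and Pax7 arrays lay below both, by -1.08 ± 0.075 from control (limma adjusted p = 4.14e-07) and by -1.16 ± 0.075 from Pax3 (limma adjusted p = 1.97e-06). Its relative Adamts10, which also acts on microfibrils, rose by 0.62 ± 0.054 with Pax7 (limma adjusted p = 2.68e-06), differed by 0.14 ± 0.054 with Pax3 (limma adjusted p = 0.0634) and was higher in Pax7 than in Pax3 arrays (0.48 ± 0.054, limma adjusted p = 0.000102). Adamts7 and Adamts12, a related pair that can cut cartilage oligomeric matrix protein, both fell, Adamts7 by 0.42 and 0.56 with Pax3 and Pax7 (limma adjusted p = 3.8e-05 and 3.23e-06) and Adamts12 by 0.16 and 0.43 (limma adjusted p = 0.00982 and 8.68e-06).

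The remaining 20 members passed in none of the 3 comparisons, with differences between -0.11 and 0.24 and a lowest limma adjusted p of 0.0705. They were Mmp1a, Mmp1b, Mmp3, Mmp7, Mmp8, Mmp9, Mmp14, Mmp20, Mmp21, Mmp24, Mmp25, Mmp27, Adamts8, Adamts13, Adamts15, Adamts16, Adamts17, Adamts18, Adamts19 and Adamts20. Of these, 18 had a mean intensity below the median gene, and Mmp14 and Adamts17 lay above it. Adamts17 stood at 8.23 ± 0.094 in control, 8.26 ± 0.132 with Pax3 and 8.31 ± 0.035 with Pax7 (SD, n = 3 each).

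Between Pax7 and Pax3 arrays, 6 members were higher in Pax7, 9 lower and 29 not past. The differences in this comparison leave out the control arrays and hold no split in Y-linked genes. Its SEs and p-values still draw on the spread of all 9 arrays, the control arrays included. The called share, 15 of 44, compares with 16.9% of all genes, 8.33% higher and 8.54% lower. At least 1 log2 unit separated the factors in 2 members, Mmp12 and Adamts6 (0.895% of all genes), and groups did not overlap in 23 (29.4% of all genes). Higher in Pax7 were Mmp12, Mmp13, Adamts9, Adamts10, Timp1 and Timp2, and lower were Mmp2, Mmp19, Mmp23, Adamts4, Adamts5, Adamts6, Adamts12, Adamts14 and Timp4. Of 17 members above the median gene 10 passed (26.4% of all genes there), and of the 27 others 5 (7.33%). Mmp13, at 0.24 ± 0.059 (limma adjusted p = 0.0179), ended as a call without Pax3 replicate 2, Pax7 replicate 2 or Pax7 replicate 3 (adjusted p up to 0.0798).

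**Figure D4:**
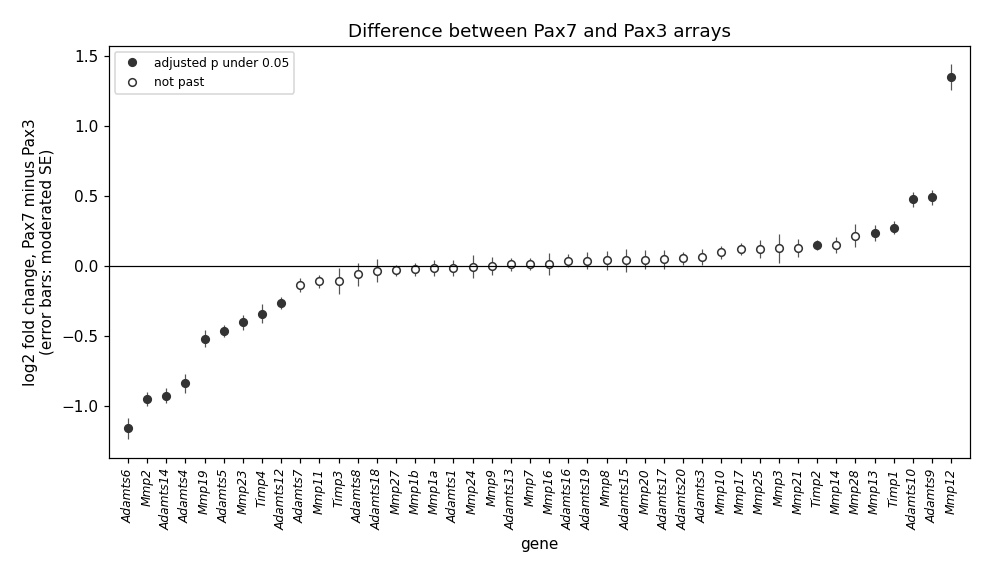
Log2 fold change of Pax7 against Pax3 arrays (y axis) for each of the 44 genes (x axis, in order of size), with moderated SE as bars and filled points for limma adjusted p under 0.05. Adamts6, Mmp2, Adamts14 and Adamts4 are furthest below 0, and Mmp12 is furthest above it.

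Genes that act with these proteases were drawn from 6 lists. Beside the counts of each list, 19.8% of all genes rose and 19.7% fell with Pax3. With Pax7, 21.6% of all genes rose and 21.5% fell. In the plasminogen system, which activates several Mmp precursors, the urokinase receptor Plaur rose by 2.16 ± 0.053 with Pax3 and 2.66 ± 0.053 with Pax7 (limma adjusted p = 1.62e-10 and 2.13e-11). Its ligand urokinase, Plau, fell by 0.60 with Pax7 (limma adjusted p = 2.02e-06) and differed by -0.03 with Pax3 (limma adjusted p = 0.697). Of the 6 measured genes of that list 1 rose and 1 fell with Pax3, and 1 rose and 2 fell with Pax7 (medians -0.004 and -0.021). Of 8 Adam genes, membrane proteases that shed surface proteins, 3 rose and 4 fell with Pax3 and 3 rose and 3 fell with Pax7 (medians -0.099 and -0.033), with Adam9 up by 1.02 ± 0.037 in Pax7 arrays (limma adjusted p = 1.92e-09).

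Adamts-like proteins share the matrix-binding domains of Adamts enzymes and lack the protease. Of 6, 3 rose and 1 fell with Pax3 and 4 rose and 1 fell with Pax7 (medians 0.12 and 0.50). Adamtsl5 rose by 1.51 ± 0.078 and 1.60 ± 0.078 (limma adjusted p = 4.7e-08 and 1.98e-08). Adamtsl3 rose by 2.30 ± 0.090 with Pax7 (limma adjusted p = 3.36e-09), differed by -0.06 ± 0.090 with Pax3 (limma adjusted p = 0.649) and was 2.37 ± 0.090 higher in Pax7 than in Pax3 arrays (limma adjusted p = 3.99e-08).

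Of 11 genes for activators, inhibitors and clearance, 2 rose and 2 fell with Pax3 and 3 rose and 2 fell with Pax7 (medians 0.05 and -0.04). Thrombospondin 2, Thbs2, a matrix protein that takes part in clearing Mmp2, rose by 2.15 ± 0.062 and 2.14 ± 0.062 (limma adjusted p = 5.88e-10 and 3.43e-10). Furin, which activates membrane-type Mmp and Adamts precursors, fell by 0.68 and 0.82 (limma adjusted p = 4.71e-07 and 6.87e-08). Reck, a membrane-anchored Mmp inhibitor, differed by -0.04 ± 0.051 and -0.06 ± 0.051 (limma adjusted p = 0.614 and 0.352). Among 11 matrix substrates, 2 rose and 3 fell with Pax3 and 2 rose and 4 fell with Pax7 (medians 0.03 and 0.03). Aggrecan, Acan, the substrate of Adamts4 and Adamts5, rose by 0.48 ± 0.064 and 2.09 ± 0.064 (limma adjusted p = 0.000101 and 5.14e-10), and versican, Vcan, differed by -0.06 ± 0.094 and -0.30 ± 0.094 (limma adjusted p = 0.699 and 0.0249). Of 9 procollagen C-proteinase and cathepsin genes, 3 rose and 2 fell with Pax3 and 4 rose and 1 fell with Pax7 (medians 0.08 and 0.15), and the C-proteinase enhancer Pcolce2 rose by 1.00 ± 0.051 and 1.27 ± 0.051 (limma adjusted p = 4.66e-08 and 4.44e-09).

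**Figure D5:**
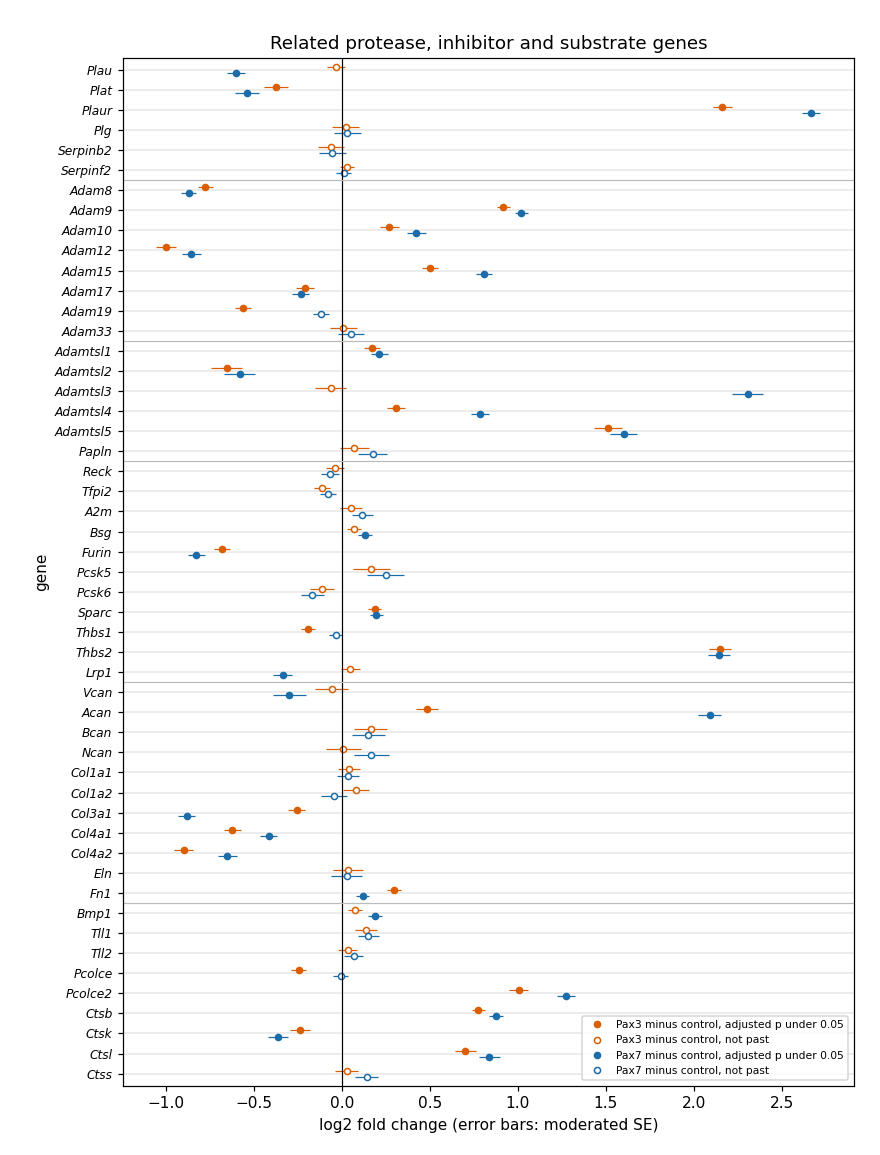
Log2 fold change against control (x axis) of the 51 measured genes of the 6 lists (y axis; lines part the lists) in Pax3 (orange) and Pax7 arrays (blue), with moderated SE as bars and filled points for limma adjusted p under 0.05. Plaur, Thbs2, Adamtsl5 and, narrowly with Pax3, Pcolce2 lie above 1 for both factors, and Adamtsl3, Acan and Adam9 do so for Pax7 alone.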

How the data were processed

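Per the submitters' processing notes, the authors deposited log2 intensities per probe set, made by RMA in R 2.10.0. Their genome build and annotation are not stated in the sources used here. Of 25668 probe sets, 20777 carried 1 symbol in the platform annotation, 232 several and 4659 none. A gene with several probe sets was represented by the one with the highest mean over the 9 arrays, and 19661 genes were tested. The identifiers of all 44 members matched a RefSeq gene table (GRCm38.p6), and 0 symbols differed.

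With limma 3.58.1 (R 4.3.3), the 3 group means were estimated from all 9 arrays together (6 residual and 4.37 prior degrees of freedom), with p-values adjusted over all genes by Benjamini-Hochberg and a threshold of 0.05. Errors of differences are moderated SEs. The fit was tested on simulated data. Array medians were 6.40 to 6.48, and the number of arrays limits the precision. Arrays of a group correlated at 0.997 to 0.999 over probe sets.

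The members, lists and tests were chosen with earlier results of these data known. Values in every array are given for the Timp genes, Mmp2 and members with a called change of at least 1 log2 unit. From the 6 lists, called changes of at least 1 are named. Syn1, Syn2, Syn3, Tmem198b, Mib2, 1700020L24Rik, Plau, Furin, Reck, Vcan, Col1a1, Col1a2 and Col3a1 do not meet that rule and were picked with their values known.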

Additional observations from a re-analysis of the deposited data

How the results depend on the processing

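Of 56 calls over the 44 members and 3 comparisons, 49 kept direction and threshold in all of the 16 alternatives that left the tested fold at 0, wherever the gene was tested, and 7 ended in some alternative. The 7 were Mmp10, Mmp11, Mmp13, Mmp17 and Mmp2 in 1 comparison each and Timp2 in 2, all with differences of at most 0.24. Conversely 15 results passed in some alternative only. No called direction reversed. Leaving out each array gave 17 to 20 members called for Pax3 against control, 20 to 24 for Pax7 against control and 13 to 17 for Pax7 against Pax3. Without the 50% of genes of lowest mean intensity, 17 members were tested, and 13, 14 and 12 passed in the 3 comparisons in that order (66.4%, 69.6% and 32.6% of all genes). Against a fold change of 1.2 (limma's treat), 12 members passed for Pax3 against control, 17 for Pax7 against control and 9 for Pax7 against Pax3 (16.6%, 19.4% and 3.99% of all genes). With the replicate number as a block (replicate block), 19, 22 and 15 members passed, of which 18, 22 and 15 also passed without it. For Pax3 against control, Timp2 lost its call (limma adjusted p = 0.0838) and Adamts18 gained one (limma adjusted p = 0.0392). Deviations of same-numbered arrays correlated at -0.026 to 0.225, and those of differently numbered arrays at -0.247 to 0.246. Of the 9 arrays, 4 correlated best with their own number. With 3 arrays per group this cannot decide whether the numbers pair the samples. Low signal limits the 27 members at or below the median gene.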
